A study of Mus musculus with 12 samples.

Results

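The erythroblastic island and iron-recycling macrophage genes are 10 genes that resident macrophages of the marrow use to hold maturing red cell precursors, to clear their extruded nuclei and to return iron from haem: Spic, Cd5l, Hmox1, Slc40a1, Cd163, Vcam1, Axl, Mertk, Siglec1 and Adgre1. They were taken by name from the 21853 genes of one deposited expression table, in a list chosen by function with their expression values in all 4 groups already known, so those values count as used in the choice. The levels of these 10 genes are therefore given as a description, with no p-value. Where the test across all genes called some of the 10, the number is printed beside the share of all genes called, and nothing is read from it. All 10 passed the low-level filter that left 10994 genes for testing. RNA was sequenced from whole bone marrow cells of B6 mice in 4 groups of 3 libraries each. The control mice were not irradiated, and no gavage is stated for them. The TBI group received total body irradiation of 5 Gy of γ-rays at 0.66 Gy per minute followed by gavage of the vehicle alone (olive oil, 100 µL). The TBI+DEIX group received the same irradiation and then DEIX by mouth at 25 mg/kg once a day for 14 days, and the DEIX group received DEIX without irradiation. DEIX stands for deinoxanthin in the title of the study, a carotenoid pigment of the radiation-resistant bacterium Deinococcus radiodurans. Since no gavage is stated for control, any part of gavage or vehicle cannot be told apart from DEIX or irradiation in comparisons with control. The same holds for the difference between the DEIX effects with and without irradiation. Marrow was taken 14 days after irradiation. The labels name no engineered allele, and they give neither age nor sex. They do not say whether the libraries of a group came from separate mice, so each p-value measures the spread between these libraries only. The marrow was not sorted, and a lower level in such bulk RNA can come from fewer macrophages or from less RNA per macrophage, which cannot be told apart here.

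In the marrow, a resident macrophage sits at the centre of an erythroblastic island and is surrounded by red cell precursors that it holds, feeds and, after they expel their nuclei, relieves of nuclear debris. The same kind of cell, like the red pulp macrophage of the spleen, engulfs worn-out red cells, splits their haem with haem oxygenase and exports the iron through ferroportin for new haemoglobin. Spi-C, a transcription factor of the ETS family, is needed for the red pulp macrophage and is induced by haem. F4/80, CD169, VCAM1, AXL and MERTK are used as surface markers of island macrophages, although each is also found on other cells.

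The marrow showed the RNA of its main lineages in every library: the neutrophil gene Camp, the globin gene Hba-a1 and the monocyte gene Ly6c2 had mean levels of 6965, 1684 and 1460 FPKM (fragments per kilobase of transcript, scaled to the fragments of the library). The genes described here were far less abundant, with means over the 12 libraries from 1.3 FPKM for Mertk to 105.6 for Slc40a1. The deposited values per library summed to between 493683 and 848843 FPKM, and between 10359 and 10832 genes reached 1 FPKM. Read counts are not used here. From the spacing of the low values, the FPKM worth of 1 read relative to control replicate 1 ranged from 0.894 to 1.88 in the 10 other libraries where a clear spacing was found, and it was not clear in TBI+DEIX replicate 1. That library also stood apart in other ways. Its summed level was 356 FPKM for 12 erythroid genes, 17.9 FPKM for 10 interferon-stimulated genes and 817 FPKM for 8 monocyte genes, each the lowest of the 12 libraries. Among the 10 macrophage genes it was the highest of its group for Spic, Hmox1 and Cd163 and the lowest for Cd5l, Slc40a1, Axl, Siglec1 and Adgre1. In each group without DEIX, 1 library was the lowest throughout: control replicate 3 for 10 of 10 genes and TBI replicate 3 for 10 of 10.

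Of the 10 genes, 5 (Spic, Cd5l, Cd163, Axl and Mertk) had an entry in the RefSeq promoter table (GRCm38.p6), and Hmox1, Slc40a1, Vcam1, Siglec1 and Adgre1 did not. The windows of Spic and Cd5l are shown because these genes had the 2 lowest levels of the DEIX group relative to the control group. Each runs 5′ to 3′ on the strand of the gene, from 250 bases before the start to 50 after it. The Spic window is chr10:88682974-88683273 on the minus strand and the Cd5l window is chr3:87357631-87357930 on the plus strand. The RefSeq start of Spic lies inside the GENCODE gene whose coordinates are given below. Capitals mark TGCTGA and its reverse complement TCAGCA, either arm of the palindromic MAF recognition element.

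Spic: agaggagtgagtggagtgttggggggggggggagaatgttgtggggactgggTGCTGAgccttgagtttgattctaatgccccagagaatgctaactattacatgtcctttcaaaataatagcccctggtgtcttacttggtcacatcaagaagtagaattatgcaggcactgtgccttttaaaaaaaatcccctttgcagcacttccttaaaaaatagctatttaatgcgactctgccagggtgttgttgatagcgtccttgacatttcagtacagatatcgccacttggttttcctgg

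Cd5l: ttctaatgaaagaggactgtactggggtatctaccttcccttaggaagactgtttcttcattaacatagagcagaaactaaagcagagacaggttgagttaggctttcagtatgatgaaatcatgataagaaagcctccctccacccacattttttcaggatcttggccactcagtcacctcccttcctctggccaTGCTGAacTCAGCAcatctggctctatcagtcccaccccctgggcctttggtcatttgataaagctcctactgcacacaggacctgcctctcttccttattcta

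Counted from the start, the first base of TGCTGA lay at position -198 in Spic, on the strand of the gene. In Cd5l it lay at -54 on that strand, and TCAGCA, the element on the other strand, lay at -46. It was in neither strand of the Cd163, Axl and Mertk windows, and 19.5% of the 32817 windows of the same length in the table held it. The ETS core GGAA, the element read by Spi-C and PU.1, was in all 5 windows and in 96% of all windows. The longer PU.1-type element GAGGAAGT (in 3.2% of all windows) was not spelled out in any of the 5. Nor was any of the interferon-stimulated response element core (3.43%), the AP-1 element TGANTCA (7.81%) or the E-box CACGTG (7.15%). Both strands were searched for each motif, and a match is a run of letters, not a measured binding site.

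Spic and Cd5l, genes of tissue-resident and iron-recycling macrophages, had a common pattern: high in the control and TBI+DEIX groups, lower after irradiation alone and lowest after DEIX alone. Spic (chromosome 10, 88674772 to 88685015, minus strand; coordinates here and for the next genes are GRCm38) encodes Spi-C. Its level in FPKM was 7.78, 8.23 and 5.72 in control, 3.64, 3.99 and 3.3 in TBI, 9.89, 8.26 and 3.9 in TBI+DEIX and 0.776, 1.76 and 2.01 in DEIX libraries. All 3 TBI libraries and all 3 DEIX libraries lay below every control library, whereas TBI+DEIX ran from within the TBI range to above the control range. The mean of the DEIX group was 4.78-fold lower than that of the control group (1.51 ± 0.652 against 7.25 ± 1.34 FPKM, SD, n = 3 each). In irradiated mice the mean with DEIX was 2.02-fold that without it. On the log2(FPKM + 1) scale used for every difference and every standard error (SE) below, these differences were -1.74 and 0.77, each with an SE of 0.28.

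Cd5l (chromosome 3, 87357881 to 87371073, plus strand) encodes the secreted scavenger protein CD5L, also called AIM, which tissue macrophages release. Control libraries had 15.9, 11.5 and 7.86 FPKM of Cd5l, TBI libraries 9, 7.78 and 6.39, TBI+DEIX libraries 9.68, 12.8 and 11, and DEIX libraries 2.36, 3.17 and 2.75. The DEIX libraries lay far below all 9 others, and the TBI+DEIX libraries lay above all 3 TBI libraries and inside the control range. Control and TBI libraries overlapped. The DEIX mean was 4.26-fold below the control mean, a log2 difference of -1.72 (SE 0.21), and the TBI+DEIX mean was 1.44-fold the TBI mean, a log2 difference of 0.48 (SE 0.21). Cd5l was less scattered than Spic among the TBI+DEIX libraries (SD 1.54 on a mean of 11.2 FPKM, against 3.1 on a mean of 7.35).

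**Figure D1:**
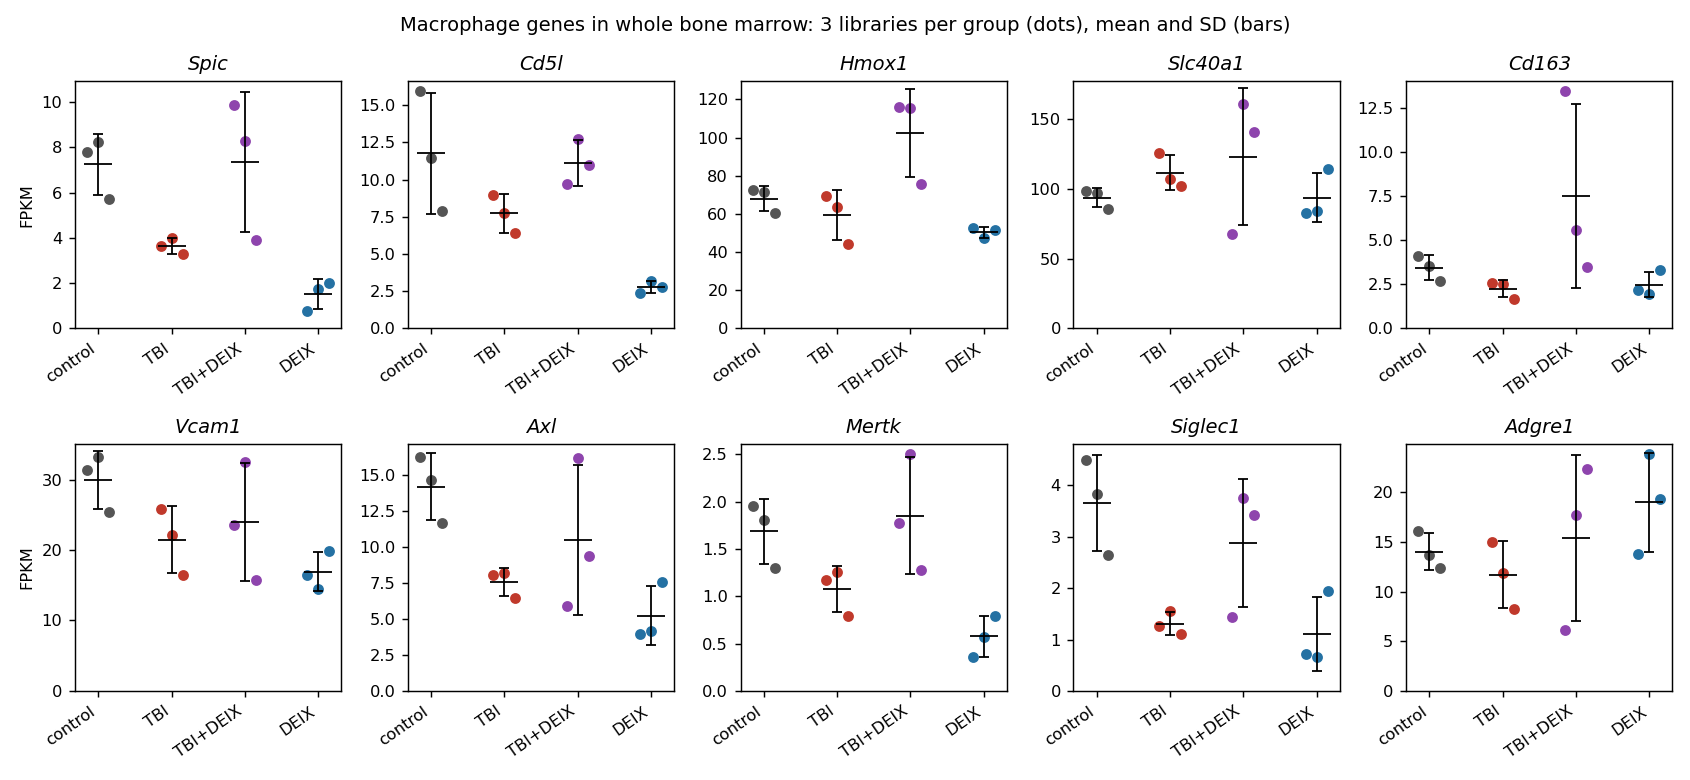
Level of each of the 10 macrophage genes in every library, in FPKM, 1 panel for each gene with its own axis; dots are libraries, the wide bar is the mean and the error bar the SD of the 3 libraries of a group. In the panels of Spic and Cd5l the DEIX libraries lie below all others, at 0.776 to 2.01 and 2.36 to 3.17 FPKM.

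Of the 3 genes that take up haem, degrade it and export its iron, Hmox1 had its group means in the same order as Spic, and Cd163 and Slc40a1 did not. Cd163 (chromosome 6, 124304656 to 124330527, plus strand) encodes the scavenger receptor for complexes of haemoglobin and haptoglobin. It was at 4.08, 3.55 and 2.68 FPKM in control, 2.56, 2.51 and 1.68 in TBI, 13.5, 5.6 and 3.51 in TBI+DEIX and 2.2, 1.94 and 3.28 in DEIX libraries. Every TBI+DEIX library was above every TBI library, and TBI+DEIX replicate 1 was more than any other library in the series. The TBI+DEIX mean was 3.34-fold the TBI mean, a log2 difference of 1.23 (SE 0.34) that was 0.76 without TBI+DEIX replicate 1. DEIX and control libraries overlapped for Cd163, with a log2 difference of -0.36 (SE 0.34). From the highest mean to the lowest the Cd163 groups ran TBI+DEIX, control, DEIX and TBI, and the libraries of each neighbouring pair overlapped.

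Hmox1 (chromosome 8, 75093621 to 75100589, plus strand) encodes haem oxygenase 1, the inducible enzyme that opens the haem ring and frees its iron. Its libraries read 72.3, 71.2 and 60.3 FPKM in control, 69.4, 63.8 and 44.4 in TBI, 116.1, 115.5 and 75.7 in TBI+DEIX and 52.4, 47.2 and 51.6 in DEIX. The TBI+DEIX libraries were above all 9 others. The DEIX libraries were below all control libraries but inside the TBI range, and control and TBI overlapped. Hmox1 had a TBI+DEIX mean of 102.4 ± 23.2 FPKM (SD, n = 3), 1.73-fold the TBI mean and 1.51-fold the control mean, with log2 differences of 0.78 and 0.56 (SE 0.19 each). DEIX alone differed from control by -0.42 (SE 0.19).

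Slc40a1 (chromosome 1, 45908068 to 45926523, minus strand) encodes ferroportin, the iron exporter, which red cell precursors also make. Of the 10 genes it had the highest level, with 98.6, 96.9 and 85.8 FPKM in control, 125.7, 107 and 102.1 in TBI, 67.8, 160.9 and 140.9 in TBI+DEIX and 83, 84.3 and 114.1 in DEIX libraries. Every TBI library was above every control library (log2 difference 0.25, SE 0.27), and Slc40a1 was the one gene of the 10 that was higher there. The TBI+DEIX libraries were widely spread, with replicate 1 the lowest and replicate 2 the highest of all 12. Control and DEIX means were both 93.8 FPKM, a log2 difference of -0.01 (SE 0.27). The summed level of 12 erythroid genes was 4010 to 6100 FPKM in control, 2140 to 9410 in TBI, 356 to 1910 in TBI+DEIX and 1610 to 9380 in DEIX libraries, and its part in the Slc40a1 values was not tested.

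Vcam1 and Siglec1, which encode receptors on the macrophage surface, were both lower in DEIX than in control libraries. Vcam1 (chromosome 3, 116109949 to 116129688, minus strand) encodes the integrin ligand that binds red cell precursors. Control libraries held 31.3, 33.2 and 25.4 FPKM of Vcam1, TBI libraries 25.9, 22.1 and 16.4, TBI+DEIX libraries 23.6, 32.5 and 15.7, and DEIX libraries 16.4, 14.5 and 19.9. DEIX was below control in every library, with a mean 1.77-fold lower (log2 difference -0.79, SE 0.24), while TBI and TBI+DEIX covered much the same range (0.12, SE 0.24). Stromal and endothelial cells also make Vcam1. The sum of 9 of their markers was 27.3 to 33.2 FPKM in control, 18.5 to 35.4 in TBI, 18.5 to 25.4 in TBI+DEIX and 12.9 to 22.1 in DEIX libraries. Their part in the Vcam1 values was not tested. Of these 9 markers, 4 (Lepr, Kitl, Kdr and Emcn) were under 1 FPKM in every library, and Cxcl12 fell by 1.51 on the log2 scale in DEIX against control (limma, Benjamini-Hochberg adjusted p = 0.0258). Exons of Vcam1 overlap those of the antisense gene Gm43109, and how the counting treated strand is not given in the sources used here.

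Siglec1 (chromosome 2, 131069220 to 131086765, minus strand) encodes CD169, the sialic acid receptor that marks island macrophages. It was at 4.5, 3.83 and 2.65 FPKM in control, 1.25, 1.55 and 1.12 in TBI, 1.45, 3.75 and 3.43 in TBI+DEIX and 0.721, 0.66 and 1.95 in DEIX libraries. All TBI and all DEIX libraries lay below the control libraries. Of the TBI+DEIX libraries, replicates 2 and 3 lay in the control range and replicate 1 in the TBI range. The Siglec1 mean was 2.8-fold lower in TBI and 3.3-fold lower in DEIX than in control, with log2 differences of -1 and -1.18 (SE 0.28 each).

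The related receptor tyrosine kinases AXL and MERTK bind phosphatidylserine on dying cells and expelled nuclei through the bridging proteins Gas6 and protein S. Axl (chromosome 7, 25757273 to 25788705, minus strand) had 16.2, 14.7 and 11.7 FPKM in control, 8.03, 8.16 and 6.44 in TBI, 5.87, 16.1 and 9.35 in TBI+DEIX and 3.92, 4.14 and 7.57 in DEIX libraries. Neither TBI nor DEIX libraries reached the lowest control library, and TBI+DEIX ranged from below TBI to within control. The Axl mean was 1.88-fold lower in TBI and 2.72-fold lower in DEIX than in control (log2 differences -0.82 and -1.32, SE 0.3 each). With DEIX in irradiated mice the log2 difference was 0.33 (SE 0.3), and it was -0.01 when TBI+DEIX replicate 2 was left out and 0.65 when replicate 1 was.

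Mertk (chromosome 2, 128698956 to 128802894, plus strand) was the least abundant of the 10 genes. It stood at 1.96, 1.81 and 1.3 FPKM in control, 1.17, 1.26 and 0.796 in TBI, 1.77, 2.51 and 1.28 in TBI+DEIX and 0.364, 0.575 and 0.79 in DEIX libraries. The Mertk means were in the same order as those of Spic. Control and TBI+DEIX overlapped, TBI lay below both, which for Spic it did not, and DEIX lay below TBI. Some of these gaps were narrow, since the lowest TBI+DEIX library (1.28 FPKM) and the highest TBI library (1.26) nearly met. The Mertk mean was 2.93-fold lower in DEIX than in control (log2 difference -0.77, SE 0.18, and -1.43 with a pseudocount of 0.1 in place of 1). In TBI+DEIX it was 1.72-fold that of TBI (0.44, SE 0.18, with 0.71 at a pseudocount of 0.1 and 0.28 without TBI+DEIX replicate 2).

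For Siglec1 and Axl, as for Vcam1, the group means stood in the order control, TBI+DEIX, TBI and DEIX, with overlap between the libraries of each neighbouring pair. Siglec1 and Axl are also induced by type I interferon. The sum of 10 interferon-stimulated genes was 946 to 1170 FPKM in control, 135 to 216 in TBI, 17.9 to 596 in TBI+DEIX and 132 to 221 in DEIX libraries, and no TBI or DEIX library reached the control range for any of the 10. By limma, 0 of these 10 passed the adjusted threshold in TBI against control, where 9 were lower at an unadjusted p under 0.05, and 2 did in DEIX against control. Their part in the Siglec1 and Axl values was not tested.

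Adgre1 (chromosome 17, 57358691 to 57483527, plus strand) encodes F4/80, the broad macrophage marker that monocytes and eosinophils of mice also carry, and it departed from the other genes. Its libraries read 16.1, 13.7 and 12.3 FPKM in control, 15, 11.9 and 8.22 in TBI, 6.14, 17.7 and 22.4 in TBI+DEIX and 13.8, 23.8 and 19.3 in DEIX. In the order of the Adgre1 means (DEIX, TBI+DEIX, control and TBI) the libraries of each neighbouring pair overlapped, and TBI+DEIX spanned nearly the whole range of the series. DEIX alone had the highest mean (19 ± 5.01 FPKM, SD, n = 3), a log2 difference from control of 0.39 (SE 0.38). The summed level of 8 monocyte genes was 1980 to 2010 FPKM in control, 1350 to 2160 in TBI, 817 to 2650 in TBI+DEIX and 2330 to 2760 in DEIX libraries. The sum of 6 eosinophil genes was 75.3 to 93.2, 57.3 to 80.3, 63.3 to 73.6 and 49.1 to 51.1 FPKM in the same groups. The part of either cell type in the Adgre1 values was not tested.

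**Figure D2:**
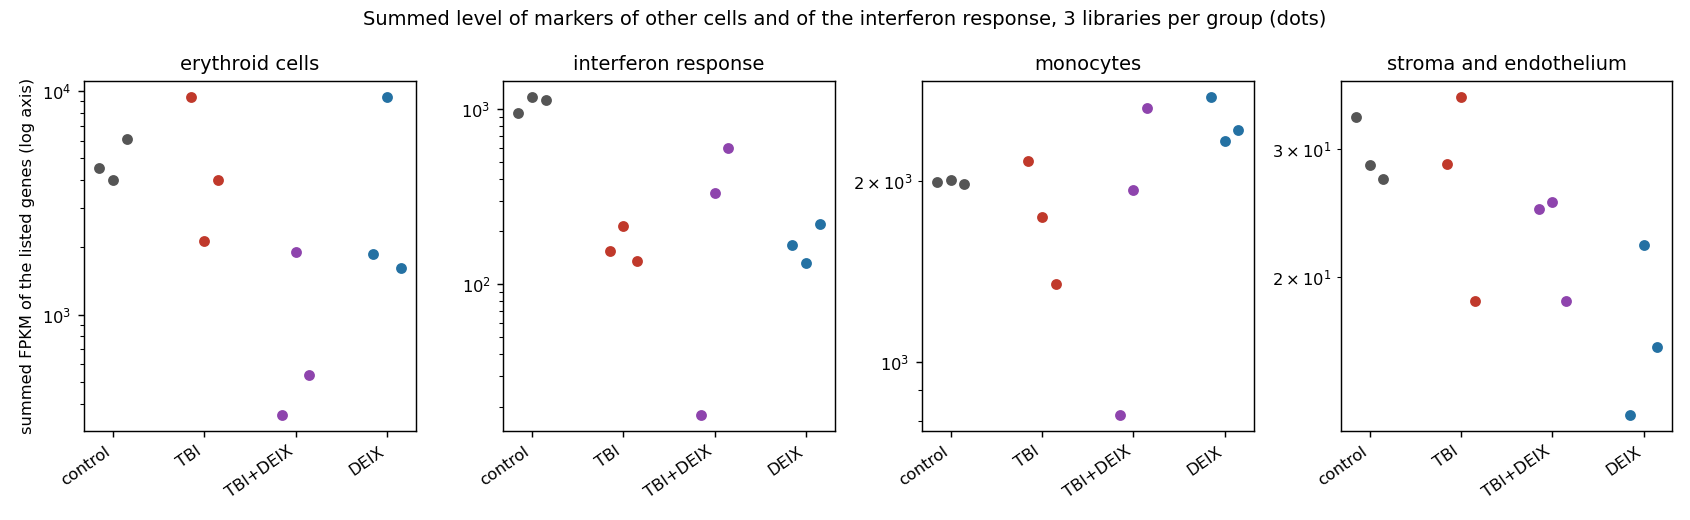
Summed level in every library, in FPKM on log axes, of the erythroid, interferon-stimulated, monocyte, and stromal and endothelial marker lists, 1 panel each; dots are libraries, by group. The erythroid sum of the TBI+DEIX libraries (356 to 1910 FPKM) lies below that of every control library, and the interferon sum is highest in control (946 to 1170 FPKM).

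Set side by side, DEIX without irradiation went with lower levels of most of the macrophage genes. Against control, the log2 difference of the DEIX group was below 0 for 9 of 10 genes (for Slc40a1 only by -0.01), with a median log2 difference of -0.78 against 0.02 over all 10994 genes tested. For 7 of them (Spic, Cd5l, Hmox1, Vcam1, Axl, Mertk and Siglec1) every DEIX library lay below every control library, as 17.2% of all genes tested did. By limma, 5 of the 10 (Spic, Cd5l, Axl, Mertk and Siglec1) were called lower, where 2.72% of all genes were; the values of this comparison were known when the genes were chosen. The number was 2, Spic and Cd5l, without any 1 of the control libraries or without DEIX replicate 1. In those fits 186, 146, 174 and 165 of all 10994 genes were called in either direction, against 796 with all libraries. The number was 3 of the 10 without DEIX replicate 2, where 938 of all genes were called. In the same comparison the sum of 7 B cell genes was 55.6 to 85.6 FPKM in DEIX and 332 to 410 in control libraries, and that of 7 dendritic cell genes 89.4 to 127 and 178 to 211. Most of the latter sum was 1 gene, H2-Ab1 (63.9, 72.3 and 93.7 FPKM in DEIX and 127.7, 139.6 and 167 in control libraries). Of the 6 dendritic cell genes tested, 5 were lower and 1, Flt3, was higher in mean log2 level, and 0 were called. The part of B cells and dendritic cells in the values of the 10 genes was not tested.

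In irradiated mice all 10 genes had a higher mean log2 level with DEIX than without it, from 0.05 for Slc40a1 to 1.23 for Cd163. The median log2 difference was 0.46, against 0 over all genes tested. For 4 of them (Cd5l, Hmox1, Cd163 and Mertk) every TBI+DEIX library was above every TBI library, as were those of 14.5% of all genes. Only Hmox1 was called, with 4.69% of all genes called higher, and its call was lost with no filter, on the TPM scale (each library rescaled to the same sum), when the 6 libraries were fitted alone, and without any 1 of the control libraries, TBI replicates 2 and 3, TBI+DEIX replicate 2 and DEIX replicate 3. Slc40a1 was below 0 on the TPM scale (-0.08), without TBI+DEIX replicate 2 (-0.18) or 3 (-0.09) and without TBI replicate 3 (-0.01). Vcam1 was below 0 on the TPM scale (-0.01), without TBI+DEIX replicate 2 (-0.12) and without TBI replicate 3 (-0.05). Adgre1 was at -0.1 without TBI+DEIX replicate 3, and Axl at -0.01 without TBI+DEIX replicate 2. Without TBI+DEIX replicate 1, Adgre1, Axl and Slc40a1 were at 0.75, 0.65 and 0.43, above their values of 0.24, 0.33 and 0.05 with all libraries. In that fit 4 of the 10 were called, as were 2836 of all 10994 genes.

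Irradiation with vehicle went with lower means for 9 of 10 genes against control, with a median of -0.46 (0.05 over all genes). Every library was lower for 5 of them (Spic, Cd163, Axl, Mertk and Siglec1; 16.3% of all genes) and higher for Slc40a1 (22% of all genes). None of the 10 was called, where limma called 3.99% of all genes in either direction; at an unadjusted p under 0.05 the count was 4, beside 1988 of all 10994 genes. Without TBI+DEIX replicate 1 the adjusted threshold was passed by 2, beside 1337 of all 10994. In irradiated mice given DEIX, 4 of the 10 genes were higher than in control and 6 lower in mean log2 level, with a median of -0.03, and Hmox1 was the 1 gene called (16.9% of all genes were called higher). Hmox1 was also the 1 gene with every TBI+DEIX library above every control library, as in 23.9% of all genes. Its call against control held in 8 of 21 alternatives and was lost without any 1 of the control or DEIX libraries, TBI replicate 2 or TBI+DEIX replicate 1 or 2.

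**Figure D3:**
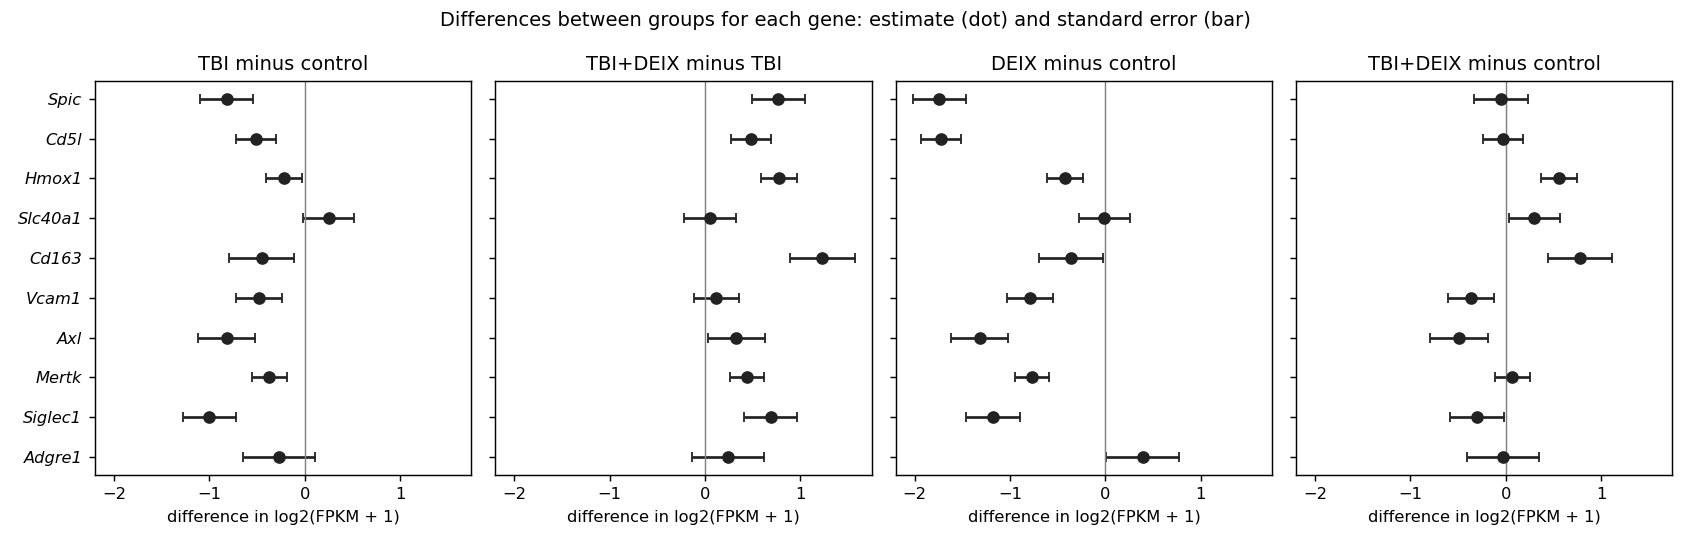
Difference of each of the 10 genes in the 4 comparisons of groups, on the log2(FPKM + 1) scale, 1 panel for each comparison; points are fitted differences and bars are 1 SE. Spic and Cd5l lie farthest below 0 in DEIX against control, at -1.74 and -1.72.

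DEIX given alone and DEIX given after irradiation were compared through 2 differences that share no library. The difference of these differences (in irradiated minus in unirradiated mice) was 2.51 for Spic (SE 0.4), 2.2 for Cd5l (SE 0.3), 1.87 for Siglec1 (SE 0.4), 1.65 for Axl (SE 0.43) and 1.59 for Cd163 (SE 0.48). Mertk (2.14 with a pseudocount of 0.1), Hmox1 and Vcam1 were at 1.21, 1.2 and 0.91, while Slc40a1 (0.07, SE 0.38) and Adgre1 (-0.15, SE 0.54) had no settled sign: leaving out 1 library moved them from -0.17 to 0.45 and from -0.49 to 0.37. The median of the 10 was 1.4, against -0.02 over all genes tested, and Spic and Cd5l were called, with 0.191% of all genes called in that direction. Without TBI+DEIX replicate 1 the number called was 5, where 331 of all 10994 genes were called in either direction. Without control replicate 2, TBI replicate 2 or DEIX replicate 1 or 3 it was 0, beside 11, 4, 8 and 11 of all 10994 genes. Without any 1 of the other libraries but TBI+DEIX replicate 3 it was 1, beside 5 to 18 of all genes. With all libraries 22 of all genes were called.

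**Figure D4:**
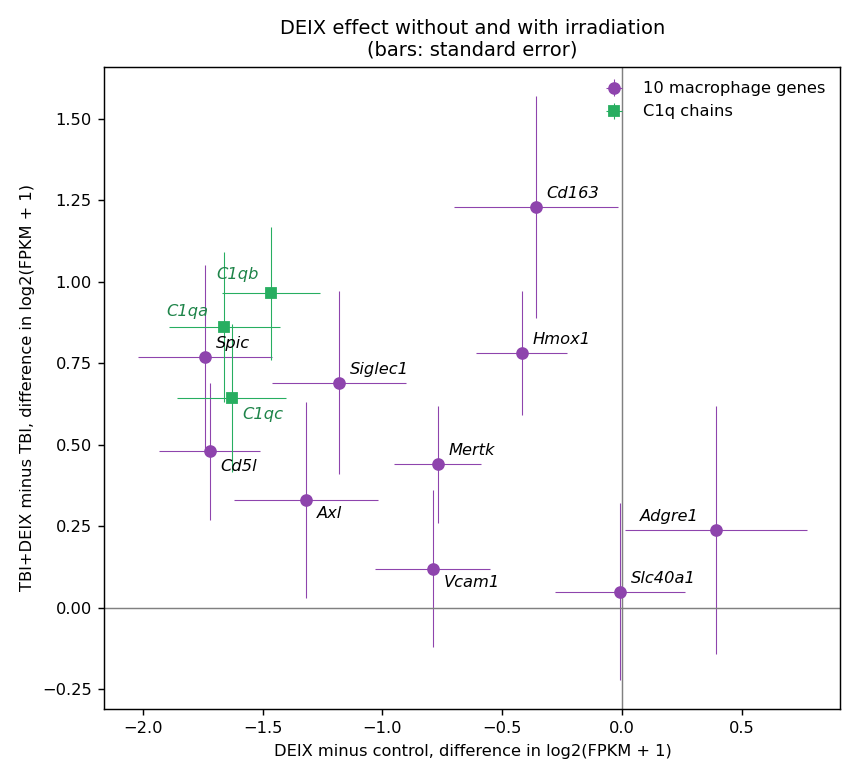
Log2 difference with DEIX in unirradiated mice (x axis) against that in irradiated mice (y axis) for the 10 genes (circles) and the 3 chains of complement C1q (squares), on the log2(FPKM + 1) scale; bars are 1 SE. Spic (-1.74, 0.77) and Cd5l (-1.72, 0.48) lie to the left of 0 and above it, and Adgre1 (0.39, 0.24) lies to the right.

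The 10 genes varied partly together from library to library. Over the 12 libraries, 38 of the 45 pairs had a positive Pearson correlation of log2(FPKM + 1), with a median of 0.53 and a range from -0.38 to 0.95; the points share the 4 groups, so these values describe the table and are not tested. Spic and Mertk were the pair most alike (0.95), followed by Axl and Siglec1 (0.94), Cd5l and Mertk (0.91), Spic and Cd5l (0.89) and Hmox1 and Cd163 (0.87). Of the genes tested outside these 10, the one most like Spic over the same 12 libraries was Mrc1, the mannose receptor of resident macrophages (0.95), which was also most like Mertk (0.94). Mrc1 had 8.79, 7.49 and 5.12 FPKM in control, 5.33, 5.67 and 3.96 in TBI, 12.2, 9.68 and 5.01 in TBI+DEIX and 2.14, 2.48 and 4.35 in DEIX libraries. Again outside the 10 genes, Cd5l was most like Nr1h3 (0.9), which encodes the nuclear receptor LXRα, followed by C1qb (0.89) and C1qc (0.89). Axl was most like Sdc3 (0.95), a syndecan, and Vcam1 was most like Fcna (0.91), the ficolin of macrophages. Siglec1 was most like Rrm2b (0.95), Hmox1 like Cxcl16 (0.9), Cd163 like Tmem131l (0.92), Slc40a1 like Tmem170 (0.95) and Adgre1 like Tmem71 (0.96). The mean of the 10 genes was most like Ccr3 (0.94), a chemokine receptor of eosinophils, and then C1qb (0.93).

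Other genes of the same functions were tested in 4 lists of 79 genes in all, 68 of which passed the low-level filter. These lists too were drawn up with earlier results of these data known, so their counts and p-values below are not independent evidence of a direction. In DEIX against control 8 of the 68 rose and 7 fell (limma, adjusted p under 0.05). In TBI+DEIX against TBI 6 rose and 1 fell, in TBI against control 1 rose and 3 fell, and in TBI+DEIX against control 17 rose and 6 fell. Of all genes tested, 4.52% rose and 2.72% fell in the first of these comparisons, 4.69% and 3.41% in the second, 0.891% and 3.1% in the third and 16.9% and 13.1% in the last. On the TPM scale, on which the median difference of all genes was -0.13 in DEIX against control and -0.12 in TBI+DEIX against TBI, 1 rose and 7 fell in DEIX against control, 2 rose and 0 fell in TBI+DEIX against TBI, 0 rose and 3 fell in TBI against control and 7 rose and 5 fell in TBI+DEIX against control. The filter, applied anew on that scale, left 11522 genes. Of these 313, 136, 285 and 1941 were called in the same comparisons, 57, 49, 25 and 579 of them higher. With TBI+DEIX replicate 1 left out, the numbers called in the first 3 comparisons were 31, 22 and 11, beside 2394, 2836 and 1337 of all 10994 genes. Without any 1 control library 5 or 6 were called in DEIX against control, 3 in TBI+DEIX against TBI and 0 in TBI against control. In these fits 146 to 186, 357 to 543 and 153 to 170 of all 10994 genes were called.

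Among the engulfment genes, all 3 chains of complement C1q changed, the opsonin that resident macrophages make and that tags dying cells. C1qa had 38.2, 40.4 and 36.1 FPKM in control, 20.3, 19.4 and 12.9 in TBI, 22.3, 43.9 and 33.7 in TBI+DEIX and 12.5, 9.23 and 12.8 in DEIX libraries. Every DEIX library was below every library of the other groups, but only just: 12.78 FPKM in DEIX replicate 3 against 12.93 in TBI replicate 3. For C1qb this did not hold, with 12.98 FPKM in DEIX replicate 1 and 12.78 in TBI replicate 3. C1qa, C1qb and C1qc fell in DEIX against control by 1.66, 1.46 and 1.63 on the log2 scale (SE 0.23, 0.2 and 0.23), each with an adjusted p of 0.00447 by limma, and these calls held in all 21 alternatives. They also fell after irradiation alone, by 1.1, 0.95 and 0.96 (adjusted p = 0.0232, 0.0262 and 0.0397). These calls were lost without any 1 of control replicates 1, 2 and 3 or of TBI replicates 2 and 3, and the C1qc call, held in 9 of 21 alternatives, also without TBI replicate 1, TBI+DEIX replicate 3 or DEIX replicate 1 or 3, with another filter and with a replicate block. C1qa and C1qb rose with DEIX in irradiated mice, by 0.86 and 0.96 (adjusted p = 0.0449 and 0.023), while C1qc differed by 0.64 and was not called. Both calls were lost on the TPM scale, without TBI replicate 3 or TBI+DEIX replicate 3, and when the 6 libraries were fitted alone. The C1qa call, held in 8 of 21 alternatives, was also lost without any 1 control library, TBI replicate 2, TBI+DEIX replicate 2 or DEIX replicate 1 or 3, with no filter and with a replicate block. The difference between the DEIX effects in irradiated and unirradiated mice was 2.52, 2.43 and 2.27 (adjusted p = 0.0142, 0.0142 and 0.016). Without control replicate 1 or 3 or TBI replicate 2 the C1qb call alone was kept. The C1qc call was also lost without control replicate 2 or DEIX replicate 1 or 2. The 3 chains form 1 protein and their genes lie side by side, so they are not independent. Among the other 13 engulfment genes tested, Cd300lf, an inhibitory phosphatidylserine receptor of myeloid cells, rose with DEIX both in unirradiated mice (0.99, adjusted p = 0.00753) and in irradiated mice (1.23, adjusted p = 0.0102; the latter call was lost without TBI replicate 3 and with the 6 libraries fitted alone). Rac1, which drives engulfment, also rose in DEIX against control (0.42, adjusted p = 0.0296), as did Pros1 and Scarb1, which are named to complete the count after their values were seen. On the TPM scale none of these 4 passed in that comparison. The Rac1 and Pros1 calls were also lost without any 1 control library or DEIX replicate 1 or 3, that of Rac1 without TBI replicate 2 as well, and the Scarb1 call without control replicate 2 or 3 or DEIX replicate 1. In TBI+DEIX against control Cd300lf rose by 1.57 (SE 0.16, adjusted p = 0.000174), a call held in all 21 alternatives. Mfge8, a bridging protein, fell by 1.01 in TBI+DEIX against control (adjusted p = 0.000897). Cd36, a scavenger receptor fell by 1.45 (adjusted p = 0.0463), a call held in 11 of 21 alternatives and lost with no filter and without any 1 control or TBI library, TBI+DEIX replicate 1 or 3 or DEIX replicate 3.

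In the list of resident macrophage genes and their regulators, 4 of 23 tested fell and 0 rose in DEIX against control. Fcna fell by 1.64 (adjusted p = 0.0152), Itgad, an integrin of red pulp macrophages, by 1.26 (adjusted p = 0.0319), and Nr1h3 by 0.71 (adjusted p = 0.0366), by limma. The fourth was Mylip, a target of LXR, named after its values were seen. The Fcna call was lost without control replicate 1 or 2 or DEIX replicate 1, while the calls of Itgad, Nr1h3 and Mylip held in 12 of 20, 11 of 20 and 8 of 21 alternatives. All 3 were lost with no filter, without any 1 control library, and without TBI replicate 2 or DEIX replicate 1 or 3. Those of Itgad and Nr1h3 were also lost without DEIX replicate 2, those of Nr1h3 and Mylip with a replicate block, and that of Mylip on the TPM scale, with a pseudocount of 0.1 and with the omission of TBI replicate 3 or either of TBI+DEIX replicates 2 and 3. Over the settings the Nr1h3 difference ran from -1.16 to -0.61. Fcna stood at 19.2, 18.6 and 14.6 FPKM in control and 4.37, 4.13 and 6.38 in DEIX libraries. Spi1, which encodes PU.1, rose by 0.68 in TBI+DEIX against TBI (adjusted p = 0.0386), a call held in 9 of 21 alternatives. Marco, a scavenger receptor, rose by 2.49 in TBI+DEIX against control (adjusted p = 0.0174), from at most 0.897 FPKM in control to 21.9, 1.08 and 8.08 in the TBI+DEIX libraries. That difference was 1.69 without TBI+DEIX replicate 1 and 3.99 with a pseudocount of 0.1, and the call was lost without control replicate 2 or 3 and when the 6 libraries were fitted alone. Outside TBI+DEIX, Marco reached 1 FPKM only in TBI replicate 1 (2.21). It therefore passed the low-level filter only through the group where it was high, and its p-value is a description only. Mpeg1, a pore-forming protein of macrophages, fell by 0.79 in TBI+DEIX against control (adjusted p = 0.0445), a call held in 9 of 21 alternatives, and the difference was -0.4 when TBI+DEIX replicate 1 was left out. In the same comparison Hpgd, which encodes a prostaglandin-degrading enzyme, fell by 1.95 (adjusted p = 0.0171), from 14.6, 11.8 and 14.1 FPKM in control to 0.338, 6.9 and 3.91. Without TBI+DEIX replicate 1 it differed by -1.22 (adjusted p = 0.0122), and the call was lost without control replicate 1 or 3 and, again, with the 6 libraries alone.

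**Figure D5:**
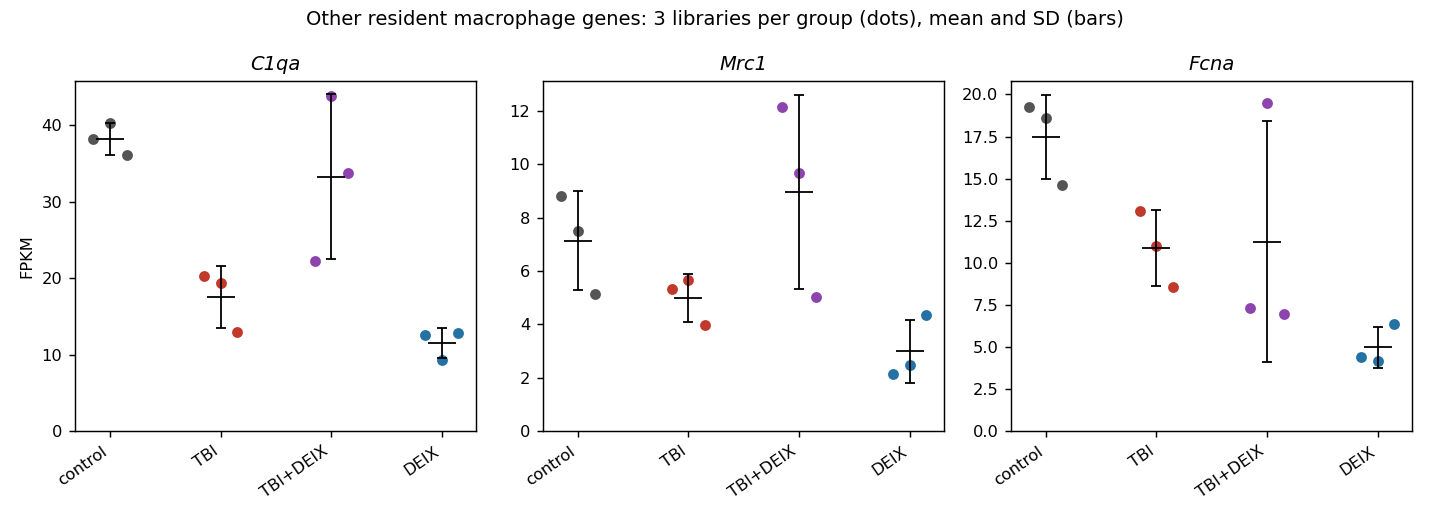
Level of C1qa, Mrc1 and Fcna in every library, in FPKM, 1 panel for each gene with its own axis; dots are libraries, the wide bar is the mean and the error bar the SD of the 3 libraries of a group. The DEIX libraries lie at 9.23 to 12.8 FPKM for C1qa and 4.13 to 6.38 for Fcna, below every control library.

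Among haem and iron genes other than the 3 described above, 3 of 17 rose in DEIX against control and 0 fell. Lrp1, a receptor that takes up haem bound to haemopexin and many other ligands, rose by 1.26 (adjusted p = 0.00447), from 11.5, 9.82 and 8.66 FPKM in control to 23.3, 30.4 and 22.7. Hp, which encodes haptoglobin, rose by 0.9 and Bach1, the haem-sensing repressor of Hmox1, by 0.58 (adjusted p = 0.038 and 0.0254). The Lrp1 call held in all 21 alternatives, while those of Hp and Bach1 were lost on the TPM scale and without any 1 control library or DEIX replicate 1 or 3, and that of Hp (held in 12 of 21) also with no filter, with a replicate block and without TBI replicate 2. In TBI+DEIX against control 6 of the 17 rose and 1 fell. Hp rose by 1.12 and Lrp1 by 0.74 (adjusted p = 0.00421 and 0.00996), the latter not on the TPM scale. Blvrb, a biliverdin reductase, fell by 1.33 (adjusted p = 0.0228), a call lost without control replicate 2 or 3 or TBI+DEIX replicate 1 or 3. In TBI+DEIX against TBI, Bach1 rose by 0.49 and Steap3, an iron reductase of red cell precursors, fell by 1.05 (adjusted p = 0.0434 and 0.048), each held in 8 of 21 alternatives. The erythroid sums of the TBI+DEIX libraries all lie below those of the TBI and control libraries, and their part in the Steap3 and Blvrb values was not tested. The 2 ferritin chains Ftl1 and Fth1, the most abundant genes of the list, were not called in any comparison of the reported fit, in which all libraries had equal weight. Without TBI+DEIX replicate 1, Ftl1 was 0.51 higher in TBI+DEIX than in TBI (adjusted p = 0.0351), against 0.03 with it. With array weights and all libraries it was 0.46 higher.

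Among the 12 tested genes of island adhesion and nuclear clearance, Sirpa, the receptor for CD47, rose by 0.53 in DEIX against control (adjusted p = 0.0484), held in 7 of 21 alternatives. Palld, which encodes the actin-bundling protein palladin, rose by 1.06 in TBI+DEIX against TBI (adjusted p = 0.00411). Its level was 0.477, 0.355 and 0.485 FPKM in control, 1.03, 0.963 and 0.984 in TBI and 3.34, 2.71 and 3.44 in TBI+DEIX libraries. The call was lost when the 6 libraries were fitted alone. Outside TBI+DEIX, Palld reached 1 FPKM only in TBI replicate 1 (1.03) and DEIX replicate 1 (1.04). It therefore passed the low-level filter only through the group where it was high, and its p-values are a description only. Palld was also the 1 gene of the 4 lists that rose in TBI against control (0.47, adjusted p = 0.0445, and 1.03 with a pseudocount of 0.1), a call held in 11 of 20 alternatives and lost on the TPM scale and without any 1 control or TBI library, TBI+DEIX replicate 3 or DEIX replicate 3. In TBI+DEIX against control 4 of the 12 rose and 1 fell, among them Palld (1.53), Sirpa (0.68) and Cd47 (0.51), with adjusted p of 4.24e-05, 0.00498 and 0.0168. The Cd47 call was lost on the TPM scale, without control replicate 2 and with the 6 libraries fitted alone, and Palld stood at 2.6 with a pseudocount of 0.1. Cd44, an adhesion receptor, was not called in any of these comparisons, nor were Calr and Apoe, abundant genes of the engulfment and resident macrophage lists. Across the 4 lists 11 genes (Hpx, Cp, Heph, Efnb2, Ephb4, Tyro3, Timd4, Stab2, Gulp1, Vsig4 and Folr2) were too low to be tested.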

How the data were processed

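Whole bone marrow RNA of 12 libraries, 3 in each of 4 groups, was sequenced with a directional MGI library kit, per the labels' protocols. The authors deposited 1 table of FPKM values (fragments per kilobase of transcript, scaled to the fragments of the library) for 21853 genes. STAR 2.6, Cufflinks 2.2.1 and the mm10 build are named per the submitters' processing notes; the annotation, the strand setting and read depths are not given in the sources used here. Gene identifiers were matched to GENCODE vM21 symbols (21853 of 21853).

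Genes at 1 FPKM or more in at least 3 of the 12 libraries (10994) were fitted as log2(FPKM + 1) with limma 3.58.1 in R 4.3.3, with 1 mean for each group and 8 residual degrees of freedom. P-values were Benjamini-Hochberg adjusted over the 10994 genes, with a threshold of 0.05. A pseudocount of 1 understates the changes of low genes such as Mertk and Siglec1. Without a depth for each library, no counting interval is given.

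The 10 genes and all other lists were chosen with earlier results of these data known. Beside the 10 genes, those named were drawn from the following genes, not all of which are named. In each list of the same functions they were the 3 tested genes with the highest mean and up to 3 called genes with the largest change in a comparison. In each marker list they were genes under 1 FPKM throughout and up to 3 of highest mean. The last were the 3 genes outside the list, predicted genes and clone names left out, most correlated with each of the 10 (5 with their mean). A gene that this rule covers is not reported here. Alternatives were another pseudocount, other filters, the TPM scale (FPKM divided by the library sum), median-ratio scaling, array weights, a replicate block, fits of the compared groups alone, leaving out genes with failed estimates and leaving out each library in turn. Replicate numbers did not pair the libraries.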

Additional observations from a re-analysis of the deposited data

Results flagged for a closer look

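The difference between the effect of DEIX in irradiated and in unirradiated mice passed the limma test across all genes for the 3 C1q chains. The first effect is against mice given vehicle and the second against mice with no stated gavage, so gavage cannot be told apart from DEIX. On the log2(FPKM + 1) scale the difference of the effects was 2.52 for C1qa, 2.43 for C1qb and 2.27 for C1qc, with adjusted p of 0.0142, 0.0142 and 0.016. For C1qb the call held in all 20 alternatives, for C1qa in 17 and for C1qc in 14. Among the 10 genes it was 2.51 for Spic and 2.2 for Cd5l, whose calls held in 6 of 19 and 16 of 20 alternatives. The C1q chains, like the 10 genes, are in lists drawn up with earlier results of these data known, so none of these values is independent evidence.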

How the results depend on the processing

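Of 1020 alternative values of the 10 genes over 5 comparisons, 987 kept the sign of the reported value, and 39 of the 50 differences had 1 sign in every setting. With array weights, Adgre1 in TBI+DEIX against control was 0.42 in place of -0.03, and Ftl1 was 0.37 in place of -0.12. Without TBI+DEIX replicate 1 they were 0.48 and 0.37.

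Numbers called are given here in a fixed order: irradiation with vehicle against control, DEIX within irradiated mice, DEIX within unirradiated mice, both treatments against control, and the difference of the DEIX effects. They were 0, 1, 5, 1 and 2 of the 10 genes and 4, 7, 15, 23 and 3 of the 68 others, beside 439, 891, 796, 3299 and 22 of all 10994 genes. With array weights the 10 genes gave 7, 7, 7, 3 and 7 and the others 38, 34, 41, 39 and 17, beside 4218, 4488, 4508, 6187 and 532 of all 10994 genes. With the compared groups fitted alone the 10 genes gave 3, 0, 7 and 0 in the comparisons of groups and the others 17, 0, 26 and 15, beside 1417, 0, 2057 and 2181 of all genes. On the TPM scale the 10 genes gave 0 for DEIX within irradiated mice and 0 for both treatments. The others gave 2, 8 and 12 for DEIX within irradiated mice, DEIX within unirradiated mice and both treatments. In these 3 comparisons 136, 313 and 1941 of all 11522 genes tested on that scale were called. With no filter the 10 genes gave 0, 0 and 1 for DEIX within irradiated mice, both treatments and the difference of effects. In these comparisons 677, 3637 and 37 of all 17304 genes were called. The others gave 4 for DEIX within irradiated mice. A minimum mean of 5 FPKM, which left fewer of the 10 genes, gave 2 for DEIX within unirradiated mice and 1 for the difference of effects. It gave 2 of the others for irradiation with vehicle. In these comparisons 576, 7 and 134 of all 8339 genes were called. A pseudocount of 0.1 gave 2 of the 10 for DEIX within irradiated mice and 1 for the difference of effects, beside 889 and 11 of all 10994 genes. Median-ratio scaling gave 0 for both treatments, beside 3310 of all genes. Except where fewer genes or libraries were tested, the cause was not tested.

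Leaving out 1 library at a time gave 0 to 2, 0 to 4, 2 to 6, 0 to 2 and 0 to 5 of the 10 genes and 0 to 11, 1 to 22, 5 to 31, 13 to 27 and 1 to 10 of the others. Of all 10994 genes 153 to 1337, 5 to 2836, 146 to 2394, 2004 to 4232 and 4 to 331 were called. Libraries with the same replicate number did not deviate together (r from -0.45 to 0.24, median -0.07, over 0.1 in 3 of 18 pairs). With a replicate block, 3 of the others were called for DEIX within irradiated mice and 1 of the 10 in the difference of effects. Beside them, 474 and 20 of all 10994 genes were called.

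A depth for each library is not used here, so the counting error of low values such as those of Mertk and Siglec1 (0.364 to 4.5 FPKM) is not known.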
